A study of Mus musculus with 6 samples.

Results

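Laminins are the cross-shaped proteins on which a basement membrane assembles, and 9 genes for their chains were followed through the lungs of this series. The chains were taken from the array as every probe set that names exactly 1 gene, where that gene is Lama1, Lama2, Lama3, Lama4, Lama5, Lamb1, Lamb2, Lamb3 or Lamc1. That gave 17 of the 45037 non-control probe sets, for 9 of the 18193 genes that single-gene probe sets name. The family was selected on measured values in part, namely the lower reading of Lama3 in the arrays labelled KO, so differences between the labels are given for its members as a description, with no test.

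Lungs of E18.5 mouse embryos, taken in the last days before birth, were profiled. Of the 6 Affymetrix Mouse430_2 arrays, 3 are labelled GATA6 KO (KO 1, KO 2 and KO 3) and 3 wild-type (WT 1, WT 2 and WT 3), and the study asks what the transcription factor GATA6 does in lung development and regeneration. The labels call the tissue GATA6 null and name no strain, allele, Cre driver or sex, nor whether an array holds 1 embryo, so that the spread between arrays of a group may be partly technical.

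Each laminin joins 1 α, 1 β and 1 γ chain, and the combination sets which cells hold on to it. The α chain carries the end that integrins and dystroglycan bind. In the lung, laminins underlie the airway and alveolar epithelium, the capillaries, the pleura and the smooth muscle, and in mice the α5 chain is needed for normal lobation and branching.

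Probe set intensities were used as log2 after adding 16, so that a silent probe set reads just above 4. All differences are KO minus WT on that scale. Probe sets with both group means under 5.30 are called dim here, 5.30 being the median of all non-control probe sets. Of the 17 laminin probe sets 13 were not dim, and they cover 8 of the 9 genes. The median intensity per array ran from 21.2 to 23.9 in the arrays labelled KO, against 20.5 to 23.4 in those labelled WT. Only 3 arrays per label limit the precision. Fluidics station 1 washed WT 1 and WT 2, and station 2 the other 4 arrays. Scanning ran through the WT arrays before the KO arrays, so that scan order and label cannot be told apart. Sftpc, the surfactant protein of alveolar type II cells, read 12.71, 15.74 and 15.37 in KO 1 to 3. It read 15.60 to 15.79 in the arrays labelled WT. The other surfactant protein genes listed differed by -0.08 (Sftpb), 0.74 (Sftpa1) and 0.99 (Sftpd), so that Sftpc does not stand for them. The lung transcription factor gene Nkx2-1, named after its values were seen, read low, at 5.15 to 6.12 in the arrays labelled KO and 5.37 to 6.73 in those labelled WT. Gata6 read 11.58, 11.39 and 11.19 in the arrays labelled KO, against 11.12, 10.26 and 10.42 in those labelled WT, and all 3 of its probe sets read higher under the KO label. The targeted gene therefore leaves the labels unchecked, and the position of these probe sets in relation to the deletion is not known here.

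In limma 0 of the 17 laminin probe sets passed an adjusted p of 0.05, against 0% of all 45037 probe sets tested in either direction, and 1394 of all probe sets had an unadjusted p under 0.05 (3.1%). Of the laminin probe sets 2 had an unadjusted p under 0.05, those of Lama3 and Lamb3 described next. As the choice of the family used this contrast, nothing is read from these counts.

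Lama3 stood lowest in the arrays labelled KO relative to those labelled WT. It encodes the α3 chain, found with β3 in the laminin that anchors epithelial sheets through integrins α6β4 and α3β1. Its probe set 1427512_a_at read 8.99, 9.59 and 9.38 in the arrays labelled KO 1 to 3, against 10.20, 11.06 and 11.02 in those labelled WT 1 to 3. Every array labelled KO lay below every array labelled WT, with a gap of 0.61 between the nearest pair, KO 2 and WT 1. Mean levels were 9.32 ± 0.31 under the KO label and 10.76 ± 0.48 under the WT label (SD, n = 3 each). The difference was -1.44 (SE 0.28), a level 2.71-fold lower, or 36.9% of that in the arrays labelled WT. The other Lama3 probe set, 1444860_at, stayed near the floor, at 4.65 to 4.70 in the arrays labelled KO and 4.66 to 4.67 in those labelled WT. Lama3 thus rests on 1 probe set, whose suffix marks one that can detect several transcripts of a gene. Within fluidics station 2, where WT 3 is the only array labelled WT, the difference was -1.70 (SE 0.30).

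Lamb3, the β3 partner of Lama3 in that laminin, was the other member whose arrays did not overlap. Its probe set read 8.88, 9.16 and 8.54 in the arrays labelled KO, against 9.17, 10.22 and 9.99 in those labelled WT. The separation was 0.02, since WT 1 read almost as KO 2 did, and it was gone with arrays centred on their medians or quantile-normalised. Mean levels were 8.86 ± 0.31 under the KO label and 9.80 ± 0.55 under the WT label (SD, n = 3 each), with a difference of -0.94 (SE 0.31), or 1.92-fold lower in the arrays labelled KO. Without WT 1 the difference was -1.25, and without WT 2 it was -0.72. Arrays labelled KO lay below those labelled WT without overlap for 2 of the 17 laminin probe sets, those of Lama3 and Lamb3, against 2.76% of all probe sets, and for 2 of the 13 that were not dim, against 5.12%. Arrays labelled KO lay above those labelled WT for 0 of the 17, against 5.72% of all probe sets. Nothing is read from these counts either.

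**Figure D1:**
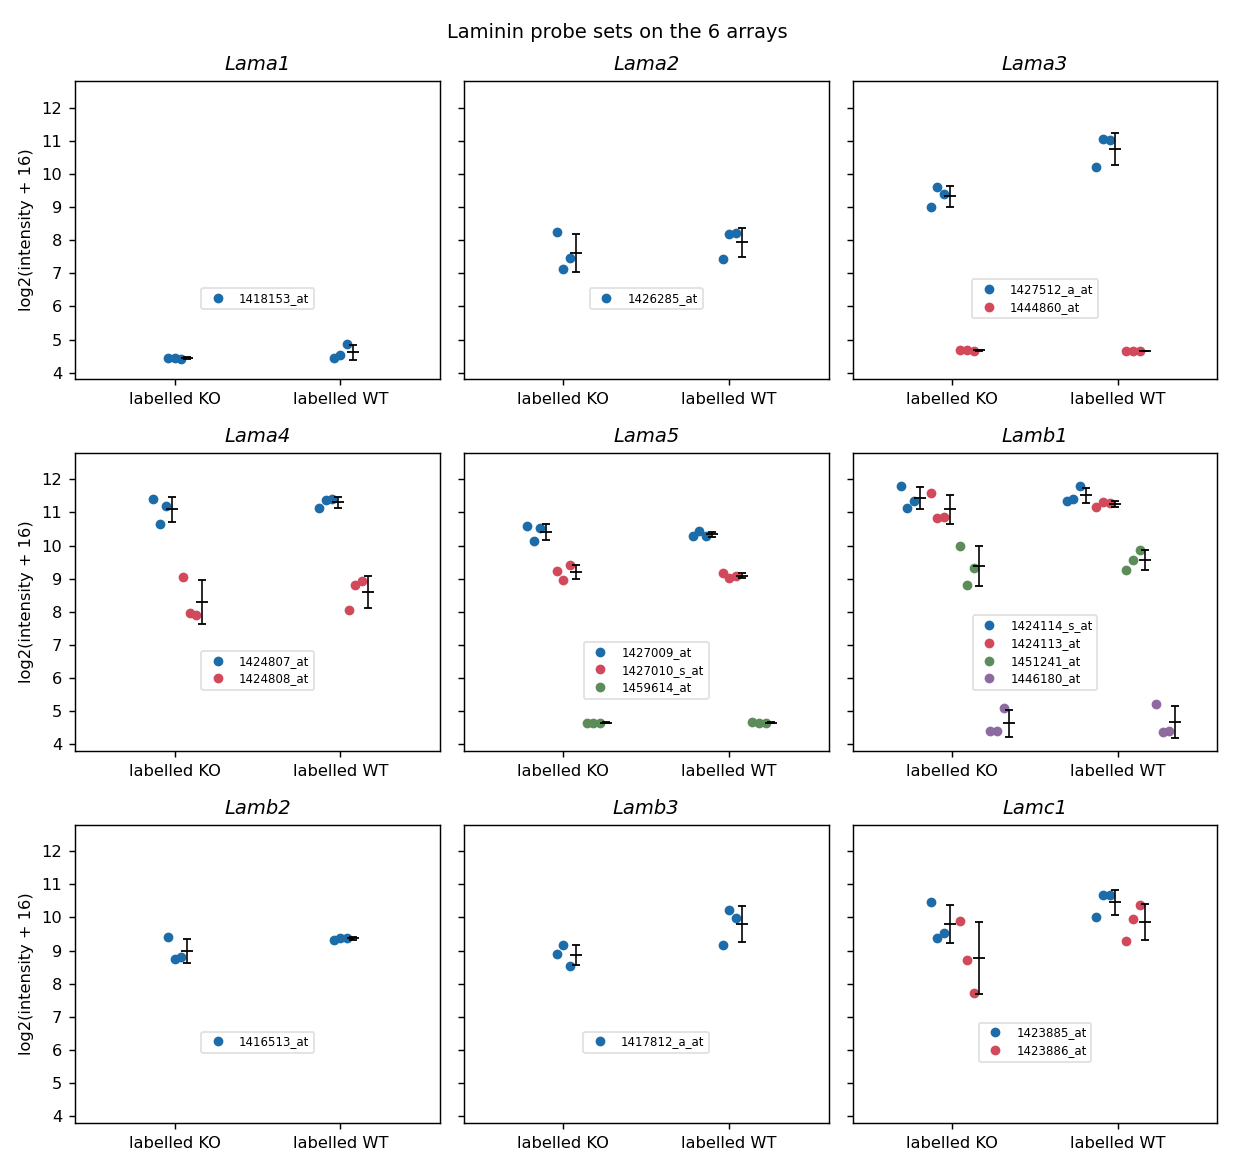
Levels of all 17 laminin probe sets as log2(intensity + 16), 1 panel per gene, with the 3 arrays labelled KO left of the 3 labelled WT. Points are arrays in the order 1 to 3, colours are probe sets, and the black bars are the mean ± SD. Lama3 1427512_a_at sits between 8.99 and 9.59 under the KO label, below all 3 arrays labelled WT, while the Lama5 and Lamb1 groups overlap.

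The promoter of Lamb3 is shown beside that of Lamb1, the gene for a β chain that most laminins of the body carry, because the one read lower under the KO label and the other overlapped between the labels. Each line is the 250 bases before a start site on the plus strand (RefSeq, GRCm38.p6), with CG dinucleotides in capitals, since promoters rich in CG tend to belong to broadly used genes. The Lamb3 window lies at chr1:193301744-193301993 and the Lamb1 window at chr12:31265043-31265292.
Lamb3: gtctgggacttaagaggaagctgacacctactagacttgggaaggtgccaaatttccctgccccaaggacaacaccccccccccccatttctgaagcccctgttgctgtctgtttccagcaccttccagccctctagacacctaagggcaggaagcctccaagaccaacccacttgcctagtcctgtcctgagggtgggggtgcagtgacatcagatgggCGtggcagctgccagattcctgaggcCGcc
Lamb1: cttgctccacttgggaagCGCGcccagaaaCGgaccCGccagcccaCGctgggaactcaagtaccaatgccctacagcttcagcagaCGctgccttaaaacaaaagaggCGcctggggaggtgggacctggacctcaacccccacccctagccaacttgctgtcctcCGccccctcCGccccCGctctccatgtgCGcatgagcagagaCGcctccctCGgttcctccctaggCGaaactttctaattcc
The Lamb3 window holds 2 CG dinucleotides and the Lamb1 window 14, where the median of all 32851 windows is 6. A second Lamb3 start site, whose window holds 3, is also annotated. Among the other members with a window, Lama5 had 19, Lamb2 3 and Lama2 0. Of these 5 genes the 3 poor in CG had the lower differences by their brightest probe set (Lamb3 -0.94, Lamb2 -0.38 and Lama2 -0.33), and Lamb1 and Lama5 the higher (-0.08 and 0.08). With 5 genes this is a description of the members only, and the family was chosen partly on the same contrast. The differences of Lama2, Lamb1 and Lama5 were within their standard errors. Lama1, Lama3, Lama4 and Lamc1 are left out, as no window was available for them. The GATA motif was searched on both strands as AGATAA or AGATAG or TGATAA or TGATAG, which share the core GATA and differ at their ends. None of the 6 windows of these 5 genes holds one, while 26.5% of all windows do. That says only that these letters are not in these 250 bases.

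Lamc1, whose γ1 chain is shared by many laminins, also averaged lower, but its arrays overlapped. Probe set 1423885_at read 10.45, 9.39 and 9.54 in the arrays labelled KO, against 10.01, 10.66 and 10.68 in those labelled WT. KO 1 read above WT 1 and close to the other arrays labelled WT. The difference was -0.66 (SE 0.34), and -0.99 without KO 1. The second probe set, 1423886_at, read 9.90, 8.71 and 7.73 in the arrays labelled KO, against 9.28, 9.96 and 10.36 in those labelled WT. Its difference of -1.09 (SE 0.59) moved to -0.56 without KO 3 and to -1.64 without KO 1, so that its size hangs on single arrays.

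The α chains of mesenchyme, vessels and muscle overlapped between the labels, and single arrays set the size of their differences. Lama2 encodes α2, the muscle laminin chain whose loss causes muscular dystrophy in mice, and read 8.26, 7.13 and 7.45 in the arrays labelled KO, against 7.43, 8.18 and 8.21 in those labelled WT. KO 1 was the highest of all 6 arrays there, and the difference of -0.33 (SE 0.37) was within its error. It was -0.65 (SE 0.31) without KO 1 and -0.08 without KO 2. Lama4, the α4 chain of blood vessel walls, read 11.42, 10.67 and 11.19 in the arrays labelled KO, against 11.12, 11.38 and 11.42 in those labelled WT, and its probe sets differed by -0.21 (SE 0.21) and -0.30 (SE 0.40). Without KO 1 these were -0.38 and -0.68, and without KO 2 they were 0.00 and -0.13. Lama1, an α chain of the early embryo, read 4.42 to 4.45 in the arrays labelled KO and 4.45 to 4.88 in those labelled WT, dim on all 6 arrays.

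Lama5 was the α chain that did not read lower. Its α5 chain is the most widespread one in late lung. The brightest probe set read 10.59, 10.14 and 10.54 in the arrays labelled KO, against 10.30, 10.43 and 10.28 in those labelled WT. The arrays labelled KO spread over 0.45 and enclosed all 3 labelled WT. Its 2 probe sets that were not dim differed by 0.08 (SE 0.14) and 0.11 (SE 0.14), and the third was dim. With arrays weighted in the fit the brightest differed by -0.01, without KO 1 by 0.00 and without KO 2 by 0.23. Within each array, the log2 level of Lama3 minus that of Lama5 was -1.60, -0.55 and -1.15 in the arrays labelled KO, against -0.10, 0.63 and 0.74 in those labelled WT, a difference of -1.52. It contains the Lama3 difference by which the family was selected, and it does not say which chain is the more abundant.

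The remaining β chains lay between. Lamb1 has 3 probe sets that were not dim, with differences of -0.08 (SE 0.21), -0.16 (SE 0.22) and -0.19 (SE 0.33). Without KO 1 these were -0.26, -0.41 (SE 0.09) and -0.50. Without KO 2 they were 0.06, -0.03 and 0.10, so that the first and the last changed sign. The first also changed sign without WT 3 and with arrays weighted in the fit, at 0.06 in each. The brightest of them read 11.79, 11.14 and 11.36 in the arrays labelled KO, against 11.35, 11.40 and 11.79 in those labelled WT, so that the highest array of each group read alike. Lamb2 encodes the β2 chain known from the kidney filter and the neuromuscular junction, and read 9.41, 8.76 and 8.80 in the arrays labelled KO, against 9.33, 9.39 and 9.39 in those labelled WT. The arrays labelled WT lay within 0.07 of each other, and KO 1 read with them. The Lamb2 difference was -0.38 (SE 0.19), and -0.59 without KO 1.

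**Figure D2:**
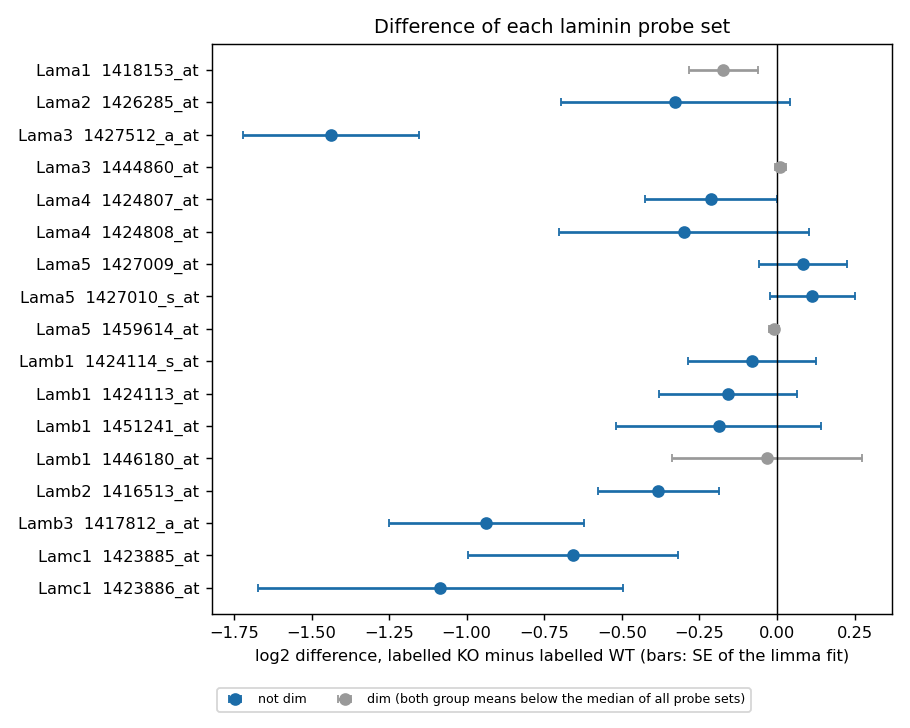
Difference of each laminin probe set, KO minus WT in log2, with the standard error of the limma fit as bars, n = 3 arrays per label. Lama3 1427512_a_at at -1.44 and Lamb3 at -0.94 lie far from 0 relative to their bars, the Lama5 probe sets that were not dim lie above 0 and the dim probe sets (grey) lie near 0.

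Over the family, 14 of the 17 probe sets differed by less than 0 and 3 by more, with a median of -0.19, beside a median of 0.00 over all 45037 probe sets. Without KO 1 the median was -0.41, and without KO 2 it was -0.03. Among the 13 that were not dim 11 differed by less than 0, where 51.3% of all probe sets that were not dim did, and their median was -0.30, against -0.01. Members of 1 gene are not independent of each other.

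Apart from the labels, the chains shared a pattern within each group, which the choice of members did not use. In 10 of the 13 probe sets that were not dim KO 1 read highest of the arrays labelled KO, where 49.3% of all such probe sets did. In 11 of the 13 WT 1 read lowest of the arrays labelled WT, where 48.2% of all did. Both held for 9 of the 13, against 36.0% of all. This pattern was noticed in the data and is given as a description. The gap between KO 1 and the mean of KO 2 and KO 3 was 0.97 for Lama2, 1.14 for Lama4 1424808_at, 0.99 for Lamc1 1423885_at and 1.68 for Lamc1 1423886_at, but 0.25 for the brightest Lama5 probe set. Lama3 went the other way: KO 1 minus the mean of KO 2 and KO 3 was -0.50. Lamb3 in KO 1 lay within 0.04 of that mean. In the arrays labelled WT, Lama3 and Lamb3 did follow the others, with WT 1 below the mean of WT 2 and WT 3 by differences of -0.83 and -0.93.

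KO 1 and WT 1 also stood at the end of their groups by a measure taken over bright probe sets of the whole array, the laminins among them. The median of bright probe sets without a gene name, minus that of bright named ones, was -1.97, -1.19 and -0.66 in KO 1 to 3, against -0.87, -1.98 and -1.88 in WT 1 to 3. KO 1, WT 2 and WT 3 thus share low values of it. The order of the remaining arrays did not match, since KO 2 read lowest of the arrays labelled KO in 9 of the 13 laminin probe sets and KO 3 in 3. With this measure as a covariate in limma the differences were -1.38 (SE 0.30) for Lama3, -0.78 (SE 0.23) for Lamb3, -0.45 (SE 0.18) for Lamc1 1423885_at and -0.71 (SE 0.26) for Lamc1 1423886_at. Each of these lay nearer to 0 than without the covariate (-1.44, -0.94, -0.66 and -1.09, in that order). Those of Lama2 and Lama4 also came nearer to 0, at -0.12 (SE 0.23) for Lama2 and -0.14 (SE 0.20) and -0.04 (SE 0.16) for Lama4. The Lamb1 probe sets that were not dim differed by -0.04 to 0.01 in that fit, Lamb2 by -0.29 (SE 0.15) and the Lama5 ones by 0.11 (SE 0.15) and 0.08 (SE 0.13). The part of this measure in the within-group pattern was not tested.

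**Figure D3:**
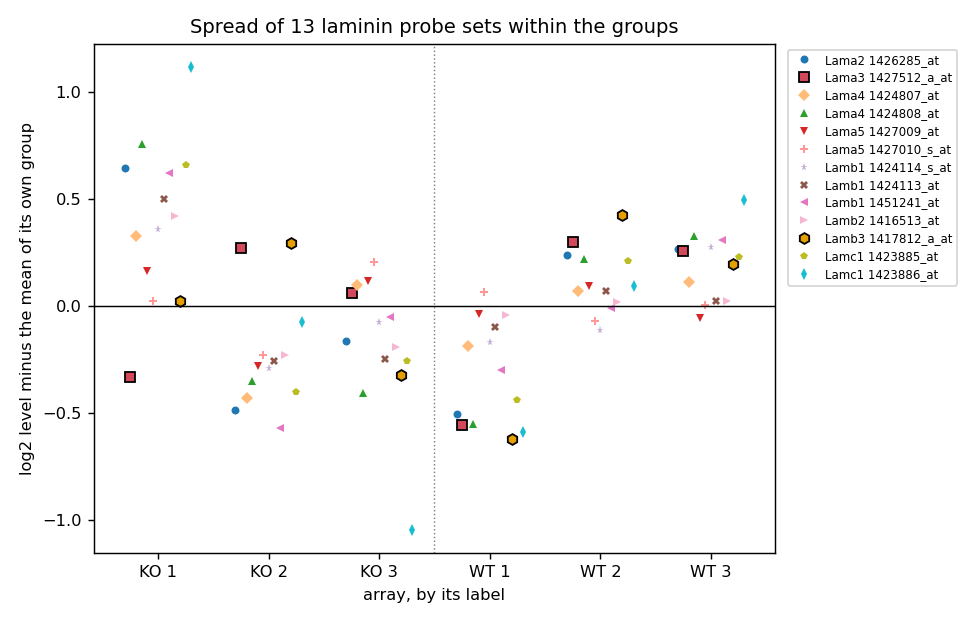
Log2 level of the 13 laminin probe sets that were not dim, minus the mean of the array's own group, for each of the 6 arrays. Most probe sets lie above 0 in KO 1 and below 0 in WT 1, whereas Lama3 (red square) lies below 0 in KO 1 and Lamb3 (orange hexagon) near 0.

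Cell type markers were summed over the brightest probe set of each gene, to set the chains beside the cells that could make them. In bulk lung, fewer cells of a type and less RNA per cell cannot be told apart. Alveolar type I cells are the thin cells that line most of the gas exchange surface. Of their 14 markers 13 read lower in the arrays labelled KO, where 51.3% of all probe sets that were not dim did. The median was -1.23. In limma 0 passed and 4 had an unadjusted p under 0.05, against 3.1% of all probe sets. Many of those are dim, and in a fit of the probe sets above the median alone 1154 of 22518 had such a p. For 3 of the 14 the KO arrays read below the WT arrays without overlap, against 3.81% of genes and 5.12% of probe sets that were not dim. For 0 they read above, against 5.89% of genes. The summed intensity of the 14 markers was 63138, 110770 and 82926 in KO 1 to 3, against 126999, 137433 and 109719 in WT 1 to 3. Lama3 had the same order over the arrays labelled KO, lowest in KO 1 and highest in KO 2, and a different one over those labelled WT, where WT 1 was lowest. The summed alveolar type II and mesothelial markers were also lowest in KO 1 and highest in KO 2 of the arrays labelled KO. None of the 14 was dim: Ager read 14.32 to 15.03 in the arrays labelled KO and 14.92 to 15.39 in those labelled WT, and Hopx 12.83 to 14.07 in the arrays labelled KO and 13.64 to 14.10 in those labelled WT. The part of this list in the Lama3 and Lamb3 differences was not tested.

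The other epithelial lists did not move as one. The 12 general epithelial markers summed to 35028 to 41953 in the arrays labelled KO, against 36363 to 38354 in those labelled WT, with 5 lower and 7 higher and a median of 0.03. Epcam differed by 0.41 (SE 0.40) and Cdh1, the epithelial cadherin, by 0.00 (SE 0.27). The 11 measured markers of alveolar type II cells summed to 62809 to 175648 in the arrays labelled KO and 109872 to 156767 in those labelled WT. Of these 8 read lower, where 51.3% of all probe sets that were not dim did, with a median of -0.22. In limma 0 passed and 4 had an unadjusted p under 0.05, against 3.1% of all probe sets. Without overlap, 2 read below (Abca3 at -2.73, Muc1 at -1.07), against 3.81% of genes. Another 2 read above (Sftpd at 0.99, Cd36 at 0.82), against 5.89%. Basal cells are airway stem cells. Of their 5 markers 4 were dim. The defining Trp63 was among them, at 4.49 to 4.51 in the arrays labelled KO and 4.50 to 4.52 in those labelled WT. Krt15 was not dim, at 9.06 to 9.31 in the arrays labelled KO and 8.06 to 9.11 in those labelled WT. It differed by 0.47 (SE 0.30).

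Among the other lists, 8 of 8 endothelial markers read lower in the arrays labelled KO, where 51.3% of all probe sets that were not dim did. For 1 of the 8 the KO arrays read below the WT arrays without overlap, against 3.81% of genes and 5.12% of probe sets that were not dim. The markers summed to 6491 to 7773 in the arrays labelled KO, against 7398 to 11859 in those labelled WT. Their median was -0.69, and Pecam1 differed by -0.81 (SE 0.41). Endothelium is a source of Lama4. The median was -0.23 over 7 smooth muscle markers, -0.03 over 8 fibroblast markers, -0.22 over 5 mesothelial markers, 0.00 over 3 measured nerve and Schwann cell markers, all dim, 0.00 over 7 muscle markers and -0.14 over 4 measured erythroid markers. No gene of these lists passed in limma, against 0% of the 18193 genes by their brightest probe set.

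Of the laminin receptors, 0 of 17 genes passed in limma in either direction and 3 had an unadjusted p under 0.05. In a fit with 1 probe set per gene, 834 of 18193 genes had such a p. For 3 of the 17 the KO arrays read below the WT arrays without overlap, against 3.81% of genes, and for 1 above, against 5.89%. Itga3 encodes the integrin α3 subunit, which pairs with β1 to bind the α3 and α5 laminins and is needed for normal lung branching in mice. It read 7.45, 7.44 and 7.28 in the arrays labelled KO, against 8.01, 8.65 and 8.03 in those labelled WT, a difference of -0.84 (SE 0.22, adjusted p = 0.963 in limma), and its 3 probe sets ran from -1.22 to -0.84. Dag1, for dystroglycan, which binds the α chain end through its sugars, read 11.86, 11.43 and 11.24 in the arrays labelled KO, against 12.07, 12.62 and 11.98 in those labelled WT, a difference of -0.72 (SE 0.23, adjusted p = 0.963 in limma), with all 4 of its probe sets lower. In both genes the arrays of the labels lay apart, and neither gene passed.

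Over the 17 receptors 11 read lower, where 51.3% of all probe sets that were not dim did, and 6 higher, with a median of -0.02. Among the higher ones was Itga7, the integrin subunit best known as the laminin receptor of muscle. It read 8.40, 7.96 and 8.59 in the arrays labelled KO, against 7.17, 7.41 and 7.70 in those labelled WT, a difference of 0.89 (SE 0.23, adjusted p = 0.963 in limma). Itga6 and Itgb1, which make the widespread laminin receptor α6β1, differed by -0.33 (SE 0.25) and -0.02 (SE 0.17), and Bcam, a receptor for α5 laminins, by 0.43 (SE 0.21). Itgb4, named after its values were seen, encodes the β4 subunit that holds the α3 laminin in hemidesmosomes, and it was dim, at 4.38 to 4.91 in the arrays labelled KO and 4.38 to 4.52 in those labelled WT.

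The other components of the basement membrane read lower in 23 of 28 genes, where 51.3% of all probe sets that were not dim did, with a median of -0.35. In limma 0 passed and 5 had an unadjusted p under 0.05. In a fit with 1 probe set per gene, 834 of 18193 genes had such a p. For 5 of the 28 the KO arrays read below the WT arrays without overlap, against 3.81% of genes, and in 0 above, against 5.89%. Col4a3, one of the collagen IV chains of kidney and alveolar membranes, read 6.69 to 7.94 in the arrays labelled KO, against 8.81 to 9.44 in those labelled WT, a difference of -1.89 (SE 0.36, adjusted p = 0.963 in limma). Its partner chain Col4a4, named after its values were seen, read 10.56, 11.09 and 10.67 in the arrays labelled KO, against 11.24, 12.14 and 11.65 in those labelled WT. KO 1 was the lowest and KO 2 the highest of the arrays labelled KO in both, the order that Lama3 and the summed alveolar type I markers also had. The summed alveolar type II markers had it too (62809, 175648 and 136714 in KO 1 to 3), as did the mesothelial ones (11325, 23080 and 16434). Sums of the remaining marker lists had other orders. The share of all probe sets with this order was not counted.

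Tinag, a basement membrane glycoprotein gene best known from kidney tubules, differed by -1.93 (SE 0.53) and Pxdn, the peroxidase that crosslinks collagen IV, by -0.76 (SE 0.21). The linkers that tie laminin to collagen IV differed less: Nid1 by -0.19 (SE 0.18), Nid2 by -0.38 (SE 0.40) and the proteoglycan Hspg2 by -0.67 (SE 0.42). Nid1 read 11.57, 10.95 and 11.18 in the arrays labelled KO, against 11.32, 11.39 and 11.55 in those labelled WT, with KO 1 highest and WT 1 lowest, as in most laminin chains. The adjusted p of each was 0.963 in limma.

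**Figure D4:**
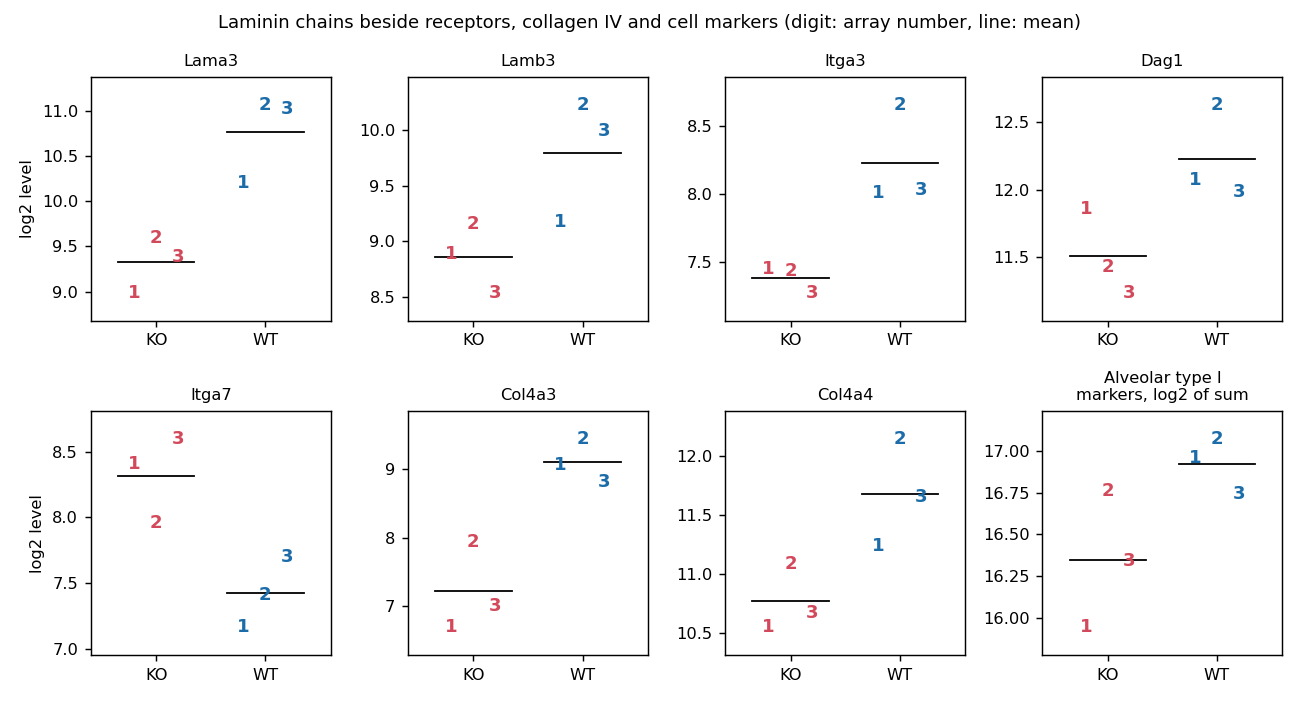
Log2 levels of Lama3, Lamb3, 3 receptor genes, 2 collagen IV genes and the log2 of the summed alveolar type I markers, with arrays labelled KO left of those labelled WT, the digit giving the array and the line the group mean. The vertical scale differs between panels. Itga3, Dag1, Col4a3 and Col4a4 lie lower in every array labelled KO, Itga7 higher, and KO 1 is lowest among the arrays labelled KO for Lama3, Col4a3, Col4a4 and the summed markers.

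Further from the laminins, no gene of the remaining lists passed in limma (2 had an unadjusted p under 0.05, Megf6 and Kank2). With 1 probe set per gene in the fit, 834 of 18193 genes had such a p. Among all probe sets that were not dim, 51.3% read lower. Of 8 measured relatives of the laminins, 5 read lower and 3 higher (median -0.04): Lamc3, a γ chain, and the netrin gene Ntn3 were dim, Ntn1 differed by -0.76 (SE 0.44) and Megf6 by 0.58 (SE 0.20). Of 11 measured genes of hemidesmosomes and intracellular anchors, 6 read lower (median -0.07), with Col17a1 at 0.08 (SE 0.30), Plec, the plectin gene, at -0.44 (SE 0.33), Dst at 0.06 (SE 0.14), Tln1, the talin gene, at -0.58 (SE 0.25), Ilk at -0.29 (SE 0.17) and Kank2 at -0.21 (SE 0.07). Of 10 measured genes of the dystroglycan complex and its sugars, 8 read higher (median 0.11), with Pomt1 at 0.16 (SE 0.18), Pomt2 at 0.39 (SE 0.41) and Pomgnt1 at 0.06 (SE 0.11), all of which build those sugars, Dtna at 0.43 (SE 0.29), Sgce at 0.15 (SE 0.12) and Sgcd dim.

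Of 20 genes that process laminin or remodel the membrane, 14 read lower (median -0.07), where 51.3% of all probe sets that were not dim did. None had an unadjusted p under 0.05 in limma. Bmp1, a protease that trims laminin chains, differed by -0.26 (SE 0.20), its relative Tll1 by -0.29 (SE 0.18) and the gelatinase Mmp2 by -0.06 (SE 0.15). Adamts9 differed by -0.49 (SE 0.20), P4ha2, a collagen prolyl hydroxylase, by 0.53 (SE 0.24) and Timp3, an inhibitor of matrix proteases, by -0.32 (SE 0.18).

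The profile of Lama3 over the 6 arrays was set against those of 11237 genes above the median that are not members, by the root mean square distance of levels centred on their means. The closest were Ackr2 at a distance of 0.26 log2, Fbp2 at 0.27, Cpa1 at 0.29, Cblif at 0.30 and C6 at 0.30. Ackr2, a decoy receptor for chemokines, read 7.25, 7.75 and 7.04 in the arrays labelled KO, against 8.12, 8.97 and 8.53 in those labelled WT. Of the other chains Lamb3 lay nearest, at 0.34, with 11 genes closer, then Lamc1 at 0.64 with 741 closer, while Lama5 lay at 0.86 with 7753 closer. These distances contain the difference between the labels by which Lama3 was chosen.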

How the data were processed

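Total RNA from mouse lungs was hybridised to Affymetrix Mouse430_2 arrays, chip type per the file headers. The deposited values are linear intensities of probe sets, for which GCRMA and MAS5 are named per the submitters' processing notes, with no version or role. Quartiles lay close together, so the arrays were taken as normalised to each other. Genes were named through the platform annotation and RefSeq GRCm38.p6, 34741 of 34945 single-gene probe sets by a current gene ID.

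Intensities were log2-transformed after adding 16, and all 45037 non-control probe sets were fitted in limma 3.58.1 in R 4.3.3 (eBayes with trend, two-sided, Benjamini-Hochberg, threshold 0.05). Every adjusted p is from that fit. Other genes stand for their brightest single-gene probe set. The fit was tested on simulated data. It recovered 13 of 100 probe sets changed by 1 log2 and 46 of 100 changed by 2 log2. A count of 0 past the threshold therefore does not mean that no level differed. Arrays of the same number were not taken as pairs. The members and lists were chosen with earlier results of these data known. Named are all members, Gata6 and the 5 nearest profiles, and the first 3 measured genes of each pathway list with the 3 smallest p. In some marker lists the first or the first 2 markers are named, and in the others none. Sftpa1, Sftpd, Abca3, Muc1, Cd36 and Krt15 were named after their values were seen.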

Additional observations from a re-analysis of the deposited data

How the results depend on the processing

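The count of probe sets past the threshold was 0 in 17 of 20 alternatives, 1 with arrays centred on their medians, 1 with 1 probe set per gene and 37 with fluidics station as a block (36 lower, 1 higher). In that block the WT comparison rests on WT 3 alone. Laminin probe sets past the threshold numbered 0 in all 20. The brightest Lama3 probe set differed by -1.76 to -1.27 in 19 alternatives and by -1.72 to -1.27 when 1 array was left out. Without probe sets of suffix s, x or a, Lama3 is left with its dim probe set, at 0.0101, because the bright one is removed. The median of the laminin probe sets ran from -0.41 to -0.03. The 16 other member probe sets moved by more than the spread between arrays in 8 of 305 values. With the replicate block, Lama3 differed by -1.44 (SE 0.15), 0 laminin probe sets passed, and no other call changed. Residuals of arrays with the same number correlated across probe sets at -0.757, 0.0199 and -0.483. With so few arrays per label these values cannot show whether arrays of the same number belong together. The labels state no pairing.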
